A study of Homo sapiens with 6 samples.

Results

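The genes described here are 9 chemokine genes and PTGS2, which encodes the prostaglandin-forming enzyme cyclooxygenase 2 (COX-2). They were taken by name from the deposited table of read counts, in which all 10 were found among 56303 genes. Of these genes, 7 are grouped as targets of the transcription factor NF-kB with AU-rich mRNAs (CXCL1, CXCL2, CXCL3, CXCL5, CXCL8, CCL2 and PTGS2) and 3 as interferon-inducible (CXCL10, CXCL11 and CCL5). RNA was sequenced from A549, an established human lung adenocarcinoma cell line, in 3 libraries from cells transfected with a negative-control siRNA and 3 from cells transfected with siRNA against HNRNPD. All cells thus went through transfection with an siRNA, and no untransfected cells were analysed here. The sources used here do not give the dose or sequence of the siRNA, the time after transfection, or whether the libraries of a group came from separate cultures. The p-values therefore rest on library-to-library spread that may be technical.

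Chemokines are small secreted proteins that draw leukocytes along a gradient. CXCL1, CXCL2, CXCL3, CXCL5 and CXCL8 attract neutrophils, mainly through the receptor CXCR2 and for CXCL8 also through CXCR1. CCL2 attracts monocytes through CCR2. CXCL10, CXCL11 and CCL5 attract T cells, the first 2 through CXCR3. Transcription of the first group and of PTGS2 is typically switched on by NF-kB after interleukin 1 or tumour necrosis factor, and that of the interferon-inducible group by interferon-activated STAT and IRF factors, often together with NF-kB. Many inflammatory mRNAs carry AU-rich elements in the 3′ untranslated region (3′ UTR), where proteins such as AUF1, the product of HNRNPD, bind and alter mRNA decay.

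The AU-rich pentamer ATTTA and the longer form TTATTTATT were counted in the 3′ UTR of 1 GENCODE 29 transcript of each gene. The pentamer occurred 22 times in PTGS2 (2562 bases of 3′ UTR), 11 times in CXCL5 (1995 bases), 10 times in CXCL2 (721 bases), 9 times in CXCL8 (1252 bases), 7 times in CXCL3 (673 bases) and 5 times in CXCL1 (706 bases). It occurred 1 time each in CCL2 (376 bases), CXCL10 (813 bases) and CXCL11 (1111 bases) and 0 times in CCL5 (886 bases). In pentamers CCL2 therefore stood with the interferon-inducible genes and not with the group it is placed in. The longer form was found 5 times in CXCL2, 3 times in CXCL1 and 1 time each in CXCL3, CXCL8 and PTGS2, and in none of the other 5. Among 13235 tested protein-coding genes with a 3′ UTR, 8.4% held it, and 29.1% held at least 5 pentamers. The 30 bases with the most pentamers are shown for the 5 genes that hold the longer form, for CXCL5, the most abundant, and for the 3 genes with only 1 pentamer, 5′ to 3′ in the sense of the mRNA with T for U, and capitals mark ATTTA (GRCh38).
CXCL1 at chr4:73870673-73870702, plus strand: aagtcttctATTTATTTATTTAttcattag
CXCL2 at chr4:74097586-74097615, minus strand: cttctATTTATTTATTTATTTATTTAtttg
CXCL3 at chr4:74037082-74037111, minus strand: gttctacttATTTAtgtATTTAtttttgaa
CXCL5 at chr4:73996679-73996708, minus strand: tgaatataaATTTAtcATTTAgttataaaa
CXCL8 at chr4:73743112-73743141, plus strand: ctATTTAttATTTAtgtATTTATTTAagca
PTGS2 at chr1:186674317-186674346, minus strand: aatgatcatATTTATTTATTTAtatgaacc
CCL2 at chr17:34256950-34256979, plus strand: aatgttaattcttATTTAagttattgatgt
CXCL10 at chr4:76021373-76021402, minus strand: tgtaagtattcttATTTAatgaaagactgt
CXCL11 at chr4:76033750-76033779, minus strand: tatatactgtaaaATTTAggtatactcaag

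**Figure D1:**
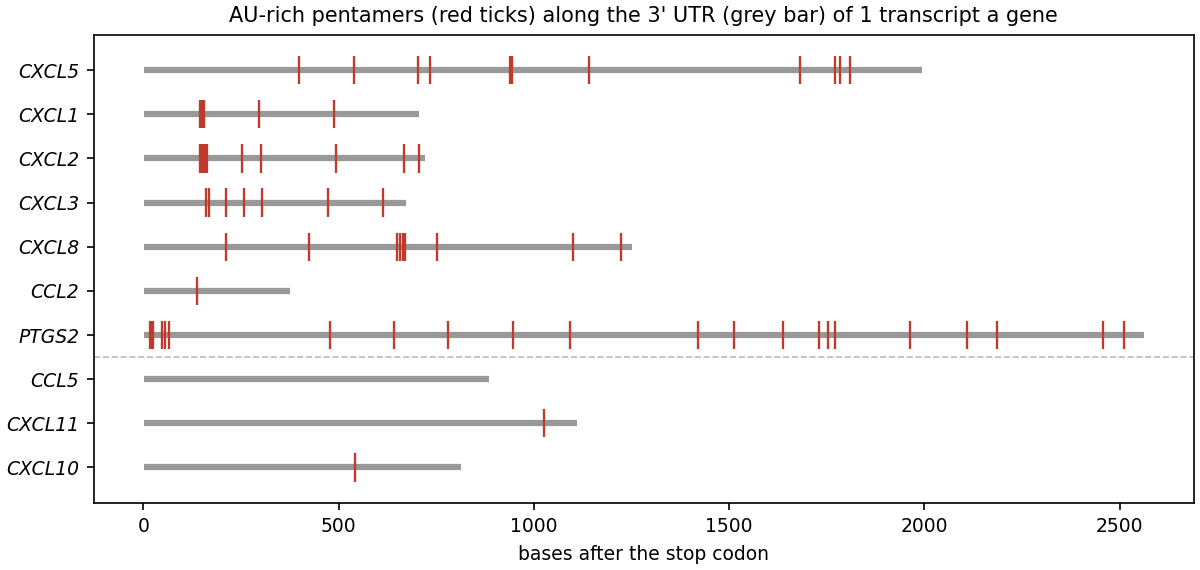
Position of each ATTTA pentamer (red tick) in bases after the stop codon, along the 3′ UTR (grey bar) of 1 transcript of each gene, with the NF-kB group above the dashed line and the interferon-inducible group below it. PTGS2 has 22 pentamers and CCL5 has 0.

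Promoters were read from the RefSeq table (GRCh38.p14, 250 bases before to 50 after the annotated start), which held 8 of the 10 genes and not CCL2 or CCL5. They were searched on both strands for the kappaB core GGAATTTCC, the kappaB consensus, which can overlap the core, the interferon response motif AAANNGAAA and the TATA box TATAAA. The core was present in CXCL1, CXCL2, CXCL3, CXCL5, CXCL8, CXCL10 and CXCL11, against 0.46% of all 35116 promoters of that length. The interferon motif was present in CXCL10 and CXCL11 and in none of the other 6, against 10.48% of all promoters. PTGS2 held neither the core nor the consensus in this window, and a match or its absence describes these letters only. The consensus was found in 11.27% of all promoters and the TATA box in 11.53%. CXCL8 held the core without the longer consensus. To compare the motifs and what surrounds them, 100 bases around the core are shown for the 5 neutrophil chemokines and 100 bases around the interferon motif for CXCL10 and CXCL11, with every searched motif in capitals.
CXCL1 at chr4:73869285-73869384, plus strand: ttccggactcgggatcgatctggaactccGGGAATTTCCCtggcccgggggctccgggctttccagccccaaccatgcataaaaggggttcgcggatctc
CXCL2 at chr4:74099203-74099302, minus strand: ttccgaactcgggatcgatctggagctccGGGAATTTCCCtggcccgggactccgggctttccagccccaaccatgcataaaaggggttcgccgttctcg
CXCL3 at chr4:74038698-74038797, minus strand: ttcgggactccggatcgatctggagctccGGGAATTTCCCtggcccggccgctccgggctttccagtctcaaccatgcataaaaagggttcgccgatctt
CXCL5 at chr4:73998698-73998797, minus strand: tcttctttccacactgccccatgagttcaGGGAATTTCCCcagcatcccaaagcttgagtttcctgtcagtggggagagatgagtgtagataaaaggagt
CXCL8 at chr4:73740448-73740547, plus strand: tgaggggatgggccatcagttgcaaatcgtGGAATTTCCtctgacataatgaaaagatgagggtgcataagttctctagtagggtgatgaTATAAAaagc
CXCL10 at chr4:76023648-76023747, minus strand: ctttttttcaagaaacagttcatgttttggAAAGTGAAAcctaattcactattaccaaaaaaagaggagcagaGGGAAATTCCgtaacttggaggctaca
CXCL11 at chr4:76036120-76036219, minus strand: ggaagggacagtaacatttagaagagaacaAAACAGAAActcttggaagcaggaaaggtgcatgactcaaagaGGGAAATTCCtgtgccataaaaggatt

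Over the whole 300-base promoters, CXCL1 was 82.5% identical to CXCL3 and 69.7% identical to CXCL2, while CXCL1 and CXCL5 were 52.3% and CXCL1 and CXCL8 42.1% identical, in global alignments with gaps counted as differences. The core lay 78 bases before the start in CXCL1 and CXCL3, 77 in CXCL2, 90 in CXCL5 and 91 in CXCL8. These distances are from the RefSeq start, which can differ from the gene ends in the deposited coordinates. The CXCL11 promoter (76036021 to 76036320) lay inside the span given there for its gene (76033682 to 76041415).

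**Figure D2:**
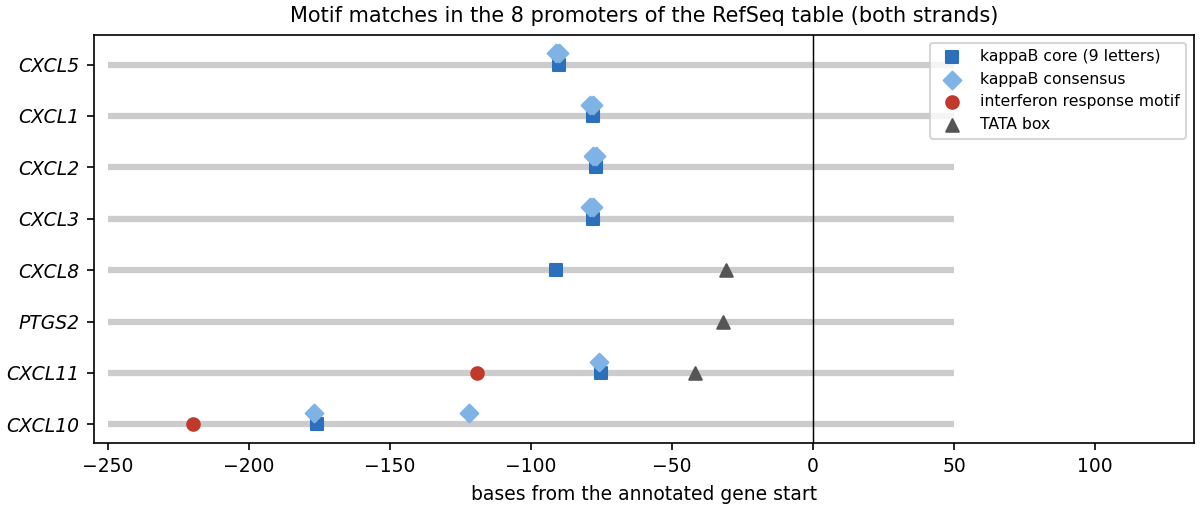
Motif matches in 8 promoters, by distance in bases of the first matched base from the annotated gene start. The kappaB core (dark blue squares) is present in 7 of the 8 and the interferon response motif (red circles) in CXCL10 and CXCL11.

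The libraries held 37151094 to 43005090 counts. HNRNPD, the targeted gene, fell from 950.1 ± 13.2 to 169 ± 7.29 CPM (SD, n = 3 each; log2 fold change -2.49, SE 0.06, edgeR adjusted p = 1.38e-15). CPM are read counts scaled to a common library size, here by TMM, edgeR's normalization to the bulk of genes. In bulk RNA fewer cells making a transcript and less transcript per cell cannot be told apart. Of 6 epithelial markers 4 keratin genes were lower and EPCAM higher, and KRT8 stood at 3327 and 2055 CPM in the control and HNRNPD siRNA libraries. Of 5 alveolar type II markers 1 passed the filter on low counts (ABCA3, not called), SFTPA1 had no count in any library and SFTPC had 8 counts at most. Chemokines are abundant in leukocytes. Of 9 leukocyte markers, 2 passed that filter (CD14 and ITGAM) and both were lower after HNRNPD siRNA. The summed level of the 9 was 6.40 to 7.72 CPM in control libraries and 2.31 to 3.57 CPM in HNRNPD siRNA libraries. PTPRC, which marks all leukocytes, had 2 counts at most in any library and CD3D had 0. The endothelial marker PECAM1, the only 1 of 3 tested, was not called (log2 fold change 0.24, edgeR adjusted p = 0.687), and of 4 fibroblast markers the only 1 tested, COL1A1, was higher (0.37, adjusted p = 0.0184), at 4.67 to 5.73 CPM in controls and 6.13 to 7.64 CPM after HNRNPD siRNA when summed over the 4. The part of other cell types in the results was not tested.

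All 10 genes passed the filter on low counts. After HNRNPD siRNA 5 of them were called higher (PTGS2, CXCL1, CCL5, CXCL11 and CXCL10) and 2 lower (CXCL5 and CCL2) at an edgeR adjusted p under 0.05, while CXCL2, CXCL3 and CXCL8 were not called. Of all 20465 genes tested, 28.4% were called higher and 27.8% lower, so a call by itself sets none of the 10 apart, and the sizes of the changes carry the description. The control and HNRNPD siRNA libraries did not overlap in 6493 of the 20465 genes on the higher side and 6321 on the lower. Lack of overlap by itself therefore sets none of the 10 apart either. CXCL10, CXCL11 and CCL5 passed the filter only through the HNRNPD siRNA libraries, so these had to differ. Their count of 3 higher of 3 and the size of their median are thus no support for a trend. The median log2 fold change was 5.67 for the interferon-inducible group and 0.15 for the NF-kB group, with 2 higher, 2 lower and 3 not called of 7, against 0.01 for all genes tested. No exonic base of any of the 10 is shared with another gene of the table.

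**Figure D3:**
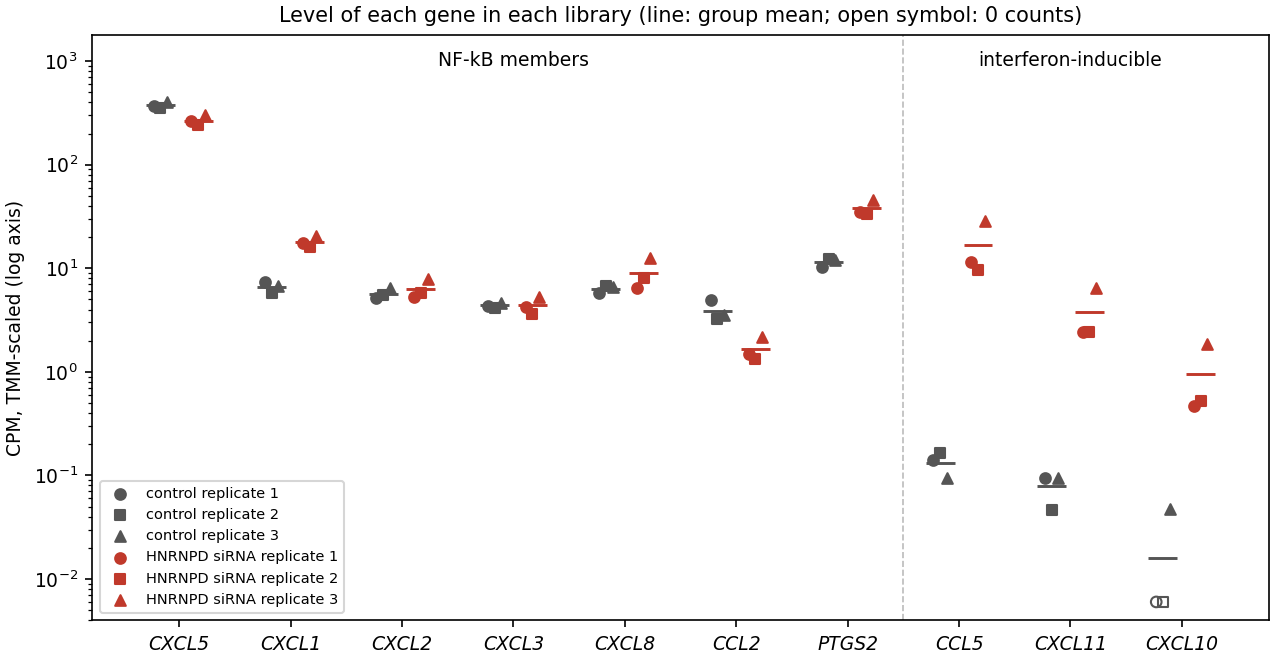
TMM-scaled CPM (log axis) of each gene in the 3 control libraries (grey) and 3 HNRNPD siRNA libraries (red), where symbols give the replicate number, lines the group means and open symbols 0 counts (drawn at the foot of the axis). The interferon-inducible genes at the right lie below 0.2 CPM in control libraries, and replicate 3 is the highest HNRNPD siRNA library for each gene.

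CXCL5, a neutrophil chemokine of epithelial cells, was by far the most abundant of the 10 and fell. It stood at 366.1, 355.6 and 404.5 CPM in control replicates 1 to 3 and at 262.6, 239.4 and 299 CPM in HNRNPD siRNA replicates 1 to 3. The lowest control library was above the highest HNRNPD siRNA library. The fall was 1.41-fold (log2 fold change -0.49, SE 0.08, edgeR adjusted p = 3.59e-05).

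CXCL1, the neutrophil chemokine first described as a melanoma growth factor, rose. Its levels were 7.30, 5.77 and 6.70 CPM in the control libraries and 17.7, 16.0 and 20.4 CPM in the HNRNPD siRNA libraries, which do not overlap. The rise was 2.73-fold (log2 fold change 1.45, SE 0.11, edgeR adjusted p = 3.56e-09). Within each library, CXCL1 had 0.0199, 0.0162 and 0.0166 counts for each count of CXCL5 in the controls and 0.0675, 0.0668 and 0.0681 after HNRNPD siRNA. This ratio needs no scaling between libraries, and it was nearly the same in the 3 HNRNPD siRNA libraries, but the pairs of genes set in ratio here were chosen after their values were seen.

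CXCL2 and CXCL3, the closest relatives of CXCL1, were not called. CXCL2 stood at 5.21, 5.46 and 6.44 CPM in controls and 5.25, 5.75 and 7.92 CPM after HNRNPD siRNA (log2 fold change 0.15, SE 0.15, edgeR adjusted p = 0.422). CXCL3 stood at 4.30, 4.16 and 4.67 CPM in controls and 4.23, 3.60 and 5.32 CPM after HNRNPD siRNA (log2 fold change 0.00, SE 0.15, edgeR adjusted p = 0.988). For both, the HNRNPD siRNA libraries spread across the range of the controls. CXCL1 had 1.70, 1.39 and 1.43 counts for each count of CXCL3 in the controls and 4.19, 4.44 and 3.83 after HNRNPD siRNA. These 3 genes share the kappaB core at nearly the same place in the promoters printed above. They are paralogs: of the 50-base stretches in their transcripts, 4.81% in CXCL1, 12.5% in CXCL2 and 6.01% in CXCL3 also occur in another of the 3, and the sources used here do not say how reads from them were counted.

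CXCL8, which encodes interleukin 8, had a wide spread after HNRNPD siRNA. It stood at 5.73, 6.68 and 6.60 CPM in controls and at 6.40, 8.06 and 12.7 CPM after HNRNPD siRNA, so replicate 1 lay within the control range and replicate 3 well above it. It was not called (log2 fold change 0.52, SE 0.24, edgeR adjusted p = 0.102). Without HNRNPD siRNA replicate 1 it was called (log2 fold change 0.70, adjusted p = 0.00275), and leaving out replicate 3 gave 0.19 (adjusted p = 0.225). It was also called higher by DESeq2 (adjusted p = 0.0151) and by edgeR with no filter on low counts (log2 fold change 0.50, adjusted p = 0.000232).

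CCL2, the monocyte chemokine also known as MCP-1, fell. Its levels were 4.98, 3.22 and 3.53 CPM in controls and 1.48, 1.34 and 2.15 CPM after HNRNPD siRNA, with no overlap. The fall was 2.36-fold (log2 fold change -1.24, SE 0.21, edgeR adjusted p = 7.49e-05). CCL2 and CXCL5 were thus the members of the NF-kB group that fell, and they differ in abundance and in pentamers, at 1 for CCL2 and 11 for CXCL5.

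PTGS2, the inducible enzyme that commits arachidonic acid to prostaglandins, had the largest rise of the NF-kB group. It stood at 10.2, 12.2 and 12.0 CPM in controls and at 34.7, 33.7 and 45.6 CPM after HNRNPD siRNA. The lowest HNRNPD siRNA library was far above the highest control. The rise was 3.31-fold (log2 fold change 1.73, SE 0.12, edgeR adjusted p = 3.14e-08).

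The interferon-inducible chemokines were near the limit of detection in controls. A count of 0 allows up to 3 counts, or 0.0698 to 0.0808 CPM of the library totals, and 66.2% to 69.5% of the counts between 1 and 20 were even numbers, so 1 count may not be 1 independent molecule. CCL5, or RANTES, had 6, 7 and 4 counts in control replicates 1 to 3 and 416, 401 and 1156 in HNRNPD siRNA replicates 1 to 3, or 11.4, 9.57 and 28.9 CPM. CXCL11 had 4, 2 and 4 counts in controls and 88, 102 and 258 after HNRNPD siRNA, the latter 2.42, 2.43 and 6.45 CPM. CXCL10, or IP-10, was the lowest, with 0, 0 and 2 counts in controls and 17, 22 and 74 after HNRNPD siRNA, the latter 0.467, 0.525 and 1.85 CPM. In all 3 genes every HNRNPD siRNA library was above every control library. As the 3 passed the filter only through the HNRNPD siRNA libraries, this is no further support for a rise.

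The fitted log2 fold changes were 6.93 (SE 0.92, edgeR adjusted p = 0.0033) for CCL5, 5.53 (SE 0.65, adjusted p = 0.000168) for CXCL11 and 5.67 (SE 0.93, adjusted p = 0.000173) for CXCL10. With counts summed over each group and scaled to its total, the HNRNPD siRNA libraries held 125 times the CCL5 of the controls, with a 95% interval of 77.8 to 215. For CXCL11 the ratio was 48.2, with an interval of 26 to 101. For CXCL10 the ratio was 60.8 on only 2 control counts, with an interval of 16.5 to 508. These exact binomial intervals cover counting error only and may be too narrow where counts are not independent. Without HNRNPD siRNA replicate 3 the log2 fold changes were 6.26, 4.89 and 4.73 for CCL5, CXCL11 and CXCL10, each still called, and without control replicate 3, which holds the only CXCL10 counts of the controls, that of CXCL10 was 8.27. With limma-voom CCL5 missed the threshold (adjusted p = 0.0633). Of the 50-base stretches in CCL5 transcripts, 13.9% also occur in transcripts of other genes.

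**Figure D4:**
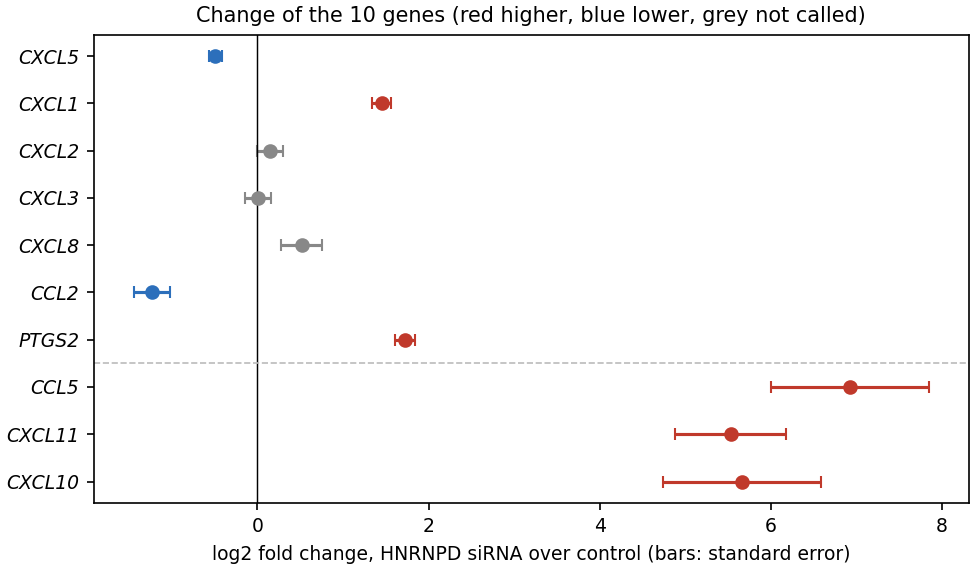
Fitted log2 fold change of each gene, HNRNPD siRNA over control, with its standard error (n = 3 libraries each). The NF-kB group above the dashed line runs from -1.24 (CCL2) to 1.73 (PTGS2), and the interferon-inducible group from 5.53 (CXCL11) to 6.93 (CCL5).

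Set side by side, the smallest log2 fold change of the interferon-inducible group (5.53, CXCL11) lay above the largest of the NF-kB group (1.73, PTGS2). CXCL10, CXCL11 and CCL5 passed the filter only through the HNRNPD siRNA libraries, with 7 counts at most in a control library. They therefore had to differ, and the gap between the groups is a description only. Within the NF-kB group, CXCL1 with 5 pentamers rose, CXCL2 with 10 was not called, CXCL5 with 11 fell, PTGS2 with 22 rose most and CCL2 with 1 fell. CXCL3 with 7 and CXCL8 with 9 were not called. These numbers of pentamers are not scaled to the length of the 3′ UTR. The interferon-inducible CXCL10 and CXCL11 also hold the core beside the interferon motif. Among all tested protein-coding genes with TTATTTATT in the 3′ UTR, 30.6% were called higher and 33.0% lower of 1107, against 29.4% and 33.6% of all 13235 with a 3′ UTR.

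HNRNPD siRNA replicate 3 was the highest of the 3 HNRNPD siRNA libraries in 10 of the 10 genes, those called lower included. Among all tested genes, 36.4% had their highest HNRNPD siRNA level in replicate 3, 33.0% in replicate 1 and 30.5% in replicate 2. The ratio of replicate 3 to the mean of replicates 1 and 2 was 3.73 for CXCL10, 2.75 for CCL5 and 2.66 for CXCL11. In the NF-kB group it was highest for CXCL8 at 1.76 and ran from 1.19 for CXCL5 to 1.52 for CCL2 in the other 6. It was 0.99 for HNRNPD, the siRNA target, and the median of all tested genes was 1.00. Replicate 3 was also the highest in 10 of 10 interferon-stimulated reference genes (IFIT1, IFIT2, IFIT3, MX1, OAS1, OAS2, ISG15, RSAD2, IFI44L and IFI6), with a median ratio of 1.56. It was the highest in 13 of 14 NF-kB regulators and 12 of 13 tested regulators of the interferon-inducible genes. It was also the highest in 10 of 10 tested further NF-kB response genes listed as AU-rich. These lists overlap, as TNFAIP3 is also counted among the NF-kB regulators and IL6 among the inducing cytokines. Of 13 proteins listed as binding AU-rich elements replicate 3 was the highest in 8. It was the highest in 3 and the lowest in 7 of 14 genes of the prostaglandin pathway. It was the highest in 5 of 9 inducing cytokines and receptors, in 2 of 5 chemokine receptors and in 2 of 6 epithelial markers. This order was looked at after the values were seen. The share of mitochondrial counts was 15.2% in replicate 3, against 18.1% and 15.1% in replicates 1 and 2, and its part in these ratios was not tested.

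**Figure D5:**
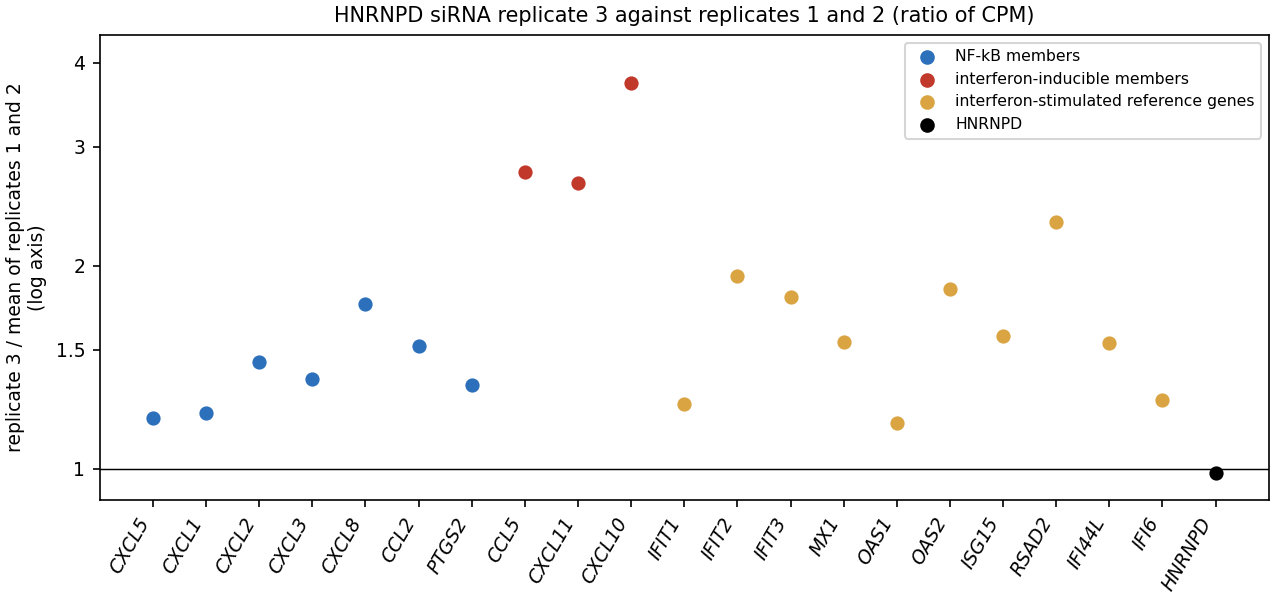
Ratio of the CPM in HNRNPD siRNA replicate 3 to the mean of replicates 1 and 2 (log axis) for the 7 NF-kB members (blue), the 3 interferon-inducible members (red), 10 interferon-stimulated reference genes (yellow) and HNRNPD (black). All points but HNRNPD (0.99) lie above 1, with CXCL10 the highest at 3.73.

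Levels were compared between genes as CPM per 1000 bases of the length in the deposited table (mean ± SD, n = 3), which counts the exons of all isoforms. In controls the order was CXCL5 (148 ± 10.2), CXCL1 (5.08 ± 0.60), CXCL2 (3.8 ± 0.43), CXCL8 (2.79 ± 0.23), PTGS2 (2.18 ± 0.21), CXCL3 (1.97 ± 0.12), CCL2 (1.97 ± 0.47), CCL5 (0.0881 ± 0.0229), CXCL11 (0.0412 ± 0.0145) and CXCL10 (0.0135 ± 0.0234). The ranges of PTGS2 and CXCL3, of CXCL3 and CCL2, and of CXCL11 and CXCL10 overlapped, and those of the other neighbours did not. After HNRNPD siRNA the order was CXCL5 (105 ± 11.8), CXCL1 (13.9 ± 1.70), CCL5 (11 ± 7.04), PTGS2 (7.21 ± 1.25), CXCL2 (4.20 ± 0.95), CXCL8 (3.98 ± 1.44), CXCL3 (1.98 ± 0.39), CXCL11 (1.97 ± 1.22), CCL2 (0.834 ± 0.218) and CXCL10 (0.805 ± 0.664). CCL5 went from the eighth place to the third, where its range overlapped those of CXCL1 and PTGS2. The ranges of CXCL2 and CXCL8, of CXCL3 and CXCL11, and of CCL2 and CXCL10 overlapped too.

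Of the 10 genes, 7 lie on chromosome 4. CXCL8 (73740506 to 73743716), CXCL1 (73869393 to 73871242), CXCL5 (73995642 to 73998779), CXCL3 (74036589 to 74038807) and CXCL2 (74097035 to 74099293) fall within 358.8 kb (GRCh38). CXCL10 (76021117 to 76023497) and CXCL11 (76033682 to 76041415) lie 1921.8 kb beyond CXCL2 and 10.2 kb from each other. Neighbours in the first cluster differed in their calls: CXCL1 rose, CXCL5, which lies 124.4 kb away, fell, and CXCL3, 37.8 kb further, was not called. CXCL6 and PPBP, which lie in this cluster as well, and PF4V1 had no count in any library, and PF4 had 6 counts at most. CXCL9, the interferon-inducible neighbour of CXCL10, had no count in any library either, which allows up to 3 counts per library. CCL2 (34255218 to 34257203) and CCL5 (35871491 to 35880793) lie on chromosome 17 and PTGS2 (186671791 to 186680427) on chromosome 1.

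Of 30 other chemokine ligands listed, 4 passed the filter on low counts and 9 had no count in any library. The 2 called higher, CX3CL1 and CCL27, would not have passed on the controls alone. CX3CL1 therefore had to differ. CCL27 had 12, 9 and 11 counts in controls, so the filter favoured a rise but did not force it. CX3CL1, the membrane-bound chemokine fractalkine, rose from 0.158 ± 0.074 to 0.815 ± 0.570 CPM (SD, n = 3 each; log2 fold change 2.36, edgeR adjusted p = 0.00104), and 1.60 without HNRNPD siRNA replicate 3 (adjusted p = 0.0158). CCL27 was also called higher (log2 fold change 1.17), but 0.99 of its exonic bases are shared with other genes, and the call was lost without any 1 of 4 libraries (control replicate 2 or 3, HNRNPD siRNA replicate 1 or 2; adjusted p from 0.0528 to 0.0747). CXCL16 (log2 fold change -0.23, adjusted p = 0.134) and CCL20 (0.46, adjusted p = 0.167) were not called. Of 22 chemokine receptors, 5 passed the filter, with 2 called higher and 1 lower. CCR10, a skin-homing receptor, fell from 44.1 to 16.6 CPM, and CXCR5 and CCR7, receptors of lymphoid tissue, had log2 fold changes of 0.60 and 0.58. A fraction of 0.886 of the exonic bases of CXCR5 and 0.313 of those of CCR10 overlaps genes on the opposite strand. Several receptors of these ligands were hardly seen: CXCR2 had no count in any library, CXCR1 and CCR2 2 at most and CXCR3 7 at most.

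Among other genes of prostaglandin synthesis, transport, breakdown and reception, 14 of 25 genes were tested, of which 8 were lower, 4 higher and 2 not called (median log2 fold change -0.50). PTGR1, a reductase that inactivates prostaglandins, fell from 322.7 to 95.3 CPM (log2 fold change -1.76, edgeR adjusted p = 9.75e-14), and 879 of its 3644 exonic bases also belong to another gene model. AKR1B1, an aldose reductase with prostaglandin F synthase activity, fell from 335.8 to 102.7 CPM (-1.71, adjusted p = 7.05e-13), and ABCC4, a prostaglandin exporter, from 151.8 to 73.1 CPM (-1.05, adjusted p = 6.45e-09). PTGS1, the constitutive counterpart of PTGS2, had 2 to 14 counts per library and was not tested. PTGES, the inducible prostaglandin E synthase that works with PTGS2, fell from 16.3 to 7.92 CPM (-1.05, adjusted p = 2.0e-06), and the phospholipase PLA2G4A, which frees arachidonic acid, rose from 40.1 to 53.7 CPM (0.42, adjusted p = 2.84e-05). The other 3 called higher were PTGER4, a receptor of prostaglandin E2 (1.32), PTGDR2, a receptor of prostaglandin D2 (0.95), and TBXAS1, thromboxane synthase (0.61). PTGES, PLA2G4A and these 3 were singled out after their values were seen.

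Among regulators of the NF-kB group, 3 of 14 NF-kB subunits, inhibitors and kinases were higher and 4 lower (median log2 fold change -0.04). BCL3, an atypical inhibitor that can activate transcription, had a log2 fold change of 1.16 (edgeR adjusted p = 9.13e-07), NFKBIE, an inhibitor, -0.90 (adjusted p = 0.000426) and IKBKG, the scaffold of the activating kinase, -0.64 (adjusted p = 3.37e-08). NFKBIB, an inhibitor (0.91), and NFKBIZ (0.93) were also called higher and the subunit RELA (-0.38) and the kinase CHUK (-0.25) lower, named here after their values were seen. Of 14 inducing cytokines and their receptors 9 were tested, with 3 higher and 3 lower. Among these, IL6 would not have passed the filter on the controls alone, nor TNFRSF1B on the HNRNPD siRNA libraries alone. The filter thus favoured a difference in both but did not force it. IL6R (-0.68, adjusted p = 4.29e-07) and TNFRSF1A (-0.49, adjusted p = 2.97e-05), receptors of interleukin 6 and tumour necrosis factor, fell, and the interleukin 1 receptor IL1R1 rose (0.50, adjusted p = 2.22e-05). IL6, itself a target of NF-kB with an AU-rich mRNA, had 2, 12 and 14 counts in controls and 32, 34 and 120 after HNRNPD siRNA, again highest in replicate 3 (2.81, adjusted p = 0.0184). LTB (0.57) was the other gene called higher and TNFRSF1B (-1.28) the other called lower, and IL6, LTB and TNFRSF1B were singled out after their values were seen. TNF and IL1B, the classic inducers, had 1 to 6 counts in every library and were not tested. Of 15 further NF-kB response genes listed as having AU-rich mRNAs, IL6 and TNFAIP3 are also in the lists above. The AU-rich label was not checked here. Of the 15 genes, 10 were tested. Of these, 2 were higher (LIF and IL6) and 3 lower, with a median of 0.00. PLAU (-1.27, adjusted p = 8.8e-10) and IER3 (-0.56, adjusted p = 2.41e-05) fell and the cytokine LIF rose (0.45, adjusted p = 6.38e-06). The third to fall was ICAM1 (-1.05, adjusted p = 0.0183), named after its value was seen. Genes on the opposite strand overlap 0.311 of the exonic bases of PLAU, 0.265 of those of IER3, 0.236 of those of ICAM1 and 0.207 of those of IL6. Among 13 proteins listed as binding AU-rich elements, a label not checked for each, 4 were higher and 5 lower, HNRNPD included. The others with the smallest p were the HNRNPD paralog HNRNPDL (0.92, edgeR adjusted p = 2.75e-10) and PUM2 (-0.39, adjusted p = 1.08e-05). The remaining called genes were ZFP36L2 (0.40), TIA1 (0.24) and AUH (0.22) on the higher side and ELAVL1 (-0.35), KHSRP (-0.28) and TIAL1 (-0.21) on the lower, named after their values were seen.

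Among regulators of the interferon-inducible group, 8 of 13 tested interferons, receptors and transcription factors were higher and 4 lower (median log2 fold change 2.07). IFNL1, IFNL2 and IFNL3 passed the filter only through the HNRNPD siRNA libraries and had to differ. Of the other 10, 5 were higher and 4 lower. IRF7 (4.55, edgeR adjusted p = 2.92e-14), STAT2 (3.23, adjusted p = 3.74e-14) and IRF9 (2.39, adjusted p = 2.73e-15), which transmit the interferon signal, rose, and 1838 of the 3794 exonic bases of IRF9 also belong to another gene model. The genes called lower were the receptor genes IFNAR1 (-0.92), IFNAR2 (-0.99) and IFNGR2 (-0.27) and the factor IRF3 (-0.32), named after their values were seen. Other gene models overlap 0.484 of the exonic bases of IFNAR2, 0.193 of those of IRF3 and 0.128 of those of IFNGR2. IFNB1, the gene of interferon beta, was not tested and had 0, 0 and 0 counts in controls and 8, 22 and 46 after HNRNPD siRNA, and the interferon lambda gene IFNL1 had 2, 0 and 0 counts in controls and 112, 90 and 294 after HNRNPD siRNA. Both were singled out after their values were seen. IFNG, whose product is a classic inducer of CXCL9, had no count in any library. The 10 reference genes were all higher, with log2 fold changes from 4.70 to 9.04 and a median of 7.30, among them IFI6 (7.30), IFIT1 (6.65) and OAS1 (4.70). OAS2 (9.04) passed the filter only through the HNRNPD siRNA libraries and had to be higher. RSAD2 (8.94), with 13, 4 and 6 counts in controls, would not have passed on the controls alone, so the filter favoured a rise. The other 8 ran from 4.70 to 9.02 (MX1). The 3 chemokines, at 5.53 to 6.93, lay within that range.

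The genes with the most similar profile over the 6 libraries were found by Pearson's correlation of log2 CPM among 9642 protein-coding genes, as a description in which the group difference takes part. They were BMS1, SRP19 and NUDC for CXCL1 (r of 0.998 to 1.00), CEP164, ZNF324B and DENND5A for PTGS2 (0.999 each) and LGALS3BP, BRD2 and MAP3K8 for CCL5 (0.999 each). For CXCL8 they were HIVEP2, FXR2 and TNFAIP3 (0.986 to 0.992). TNFAIP3, which encodes the NF-kB feedback inhibitor A20, stood at 34.5 ± 0.85 CPM in controls and 52.2 ± 22.4 CPM after HNRNPD siRNA (SD, n = 3 each), and like CXCL8 it was not called (edgeR adjusted p = 0.209).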

How the data were processed

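The deposited table holds whole-number read counts per gene in 6 libraries (3 control, 3 HNRNPD siRNA), with coordinates and a length for each gene. The submitters' processing notes name Bowtie 0.12.2 and, without a role for either, the builds GRCh38 and mm8. For the authors' counting program, strand setting and handling of reads that match several places, nothing is given in the sources used here. All 80 distinct exons of the 10 genes match GENCODE 29 (GRCh38).

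Counts were tested with edgeR 4.0.16 (R 4.3.3) by the robust quasi-likelihood test after filterByExpr and TMM, with group as the only term and Benjamini-Hochberg adjustment over 20465 genes. A gene was called at an adjusted p under 0.05. Each SE is the absolute log2 fold change divided by the square root of F. DESeq2 1.42.0, limma-voom (limma 3.58.1), other scalings and filters, a replicate block and leaving out each library were alternatives. Fits were tested on simulated data. Replicates differed by a chi-square per degree of freedom of 6.63 to 27.7, so none was a plain copy of another library. This cannot tell separate cultures from separate preparations of the same culture. Named genes are all 10, HNRNPD, the 3 genes of each list with the smallest p, CCL20, CXCL6, CXCL9 and chemokine genes between members, and the 3 most correlated with CXCL1, CXCL8, PTGS2 and CCL5. The 10 genes, the lists and the rule were chosen with earlier results of these data known. For 3′ UTRs 1 complete coding transcript was used, a principal one where there was any, and among equals the one with the longest 3′ UTR.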

Additional observations from a re-analysis of the deposited data

How the results depend on the processing

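Over 15 alternatives, 4 to 6 of the 10 genes were called higher and 2 lower. CXCL1, CXCL5, CCL2, PTGS2, CXCL10 and CXCL11 kept direction and call in each alternative in which they were tested, and CXCL10 was not tested with at least 1 CPM in 3 libraries. CCL5 was not called by limma-voom (log2 fold change 6.69, adjusted p = 0.0633). CXCL8 was called with DESeq2 (0.51), no filter on low counts (0.50), the replicate block (0.48) and without HNRNPD siRNA replicate 1 (0.70). CXCL2, never called, ran from -0.06 (without HNRNPD siRNA replicate 3) to 0.25 (without replicate 1). CXCL3, never called and at 0.00, turned below 0 with DESeq2-type size factors (0.00), DESeq2 (0.00), limma-voom (-0.01), no filter (-0.02), the replicate block (-0.01) and without control replicate 1 (-0.02), control replicate 2 (-0.04) or HNRNPD siRNA replicate 3 (-0.17), and reached 0.13 without HNRNPD siRNA replicate 2. The cause was not tested. The median of the NF-kB group was -0.06 without HNRNPD siRNA replicate 3. Genes called higher over the whole table numbered 5125 to 5965 and lower 5049 to 5926.

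The groups share replicate numbers, but same-numbered libraries did not deviate together (correlations of deviations from the group means of 0.04, 0.03 and 0.02), and the replicate block called 5792 genes higher and 5737 lower and changed no call of the 10 but that of CXCL8. Depth limits CXCL10, CXCL11 and CCL5 in the controls, where counts were 7 at most.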
